A study of Mus musculus with 4 samples.

Results

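The genes described here make and recycle the antioxidants of the cell. They are 38 mouse genes of the NRF2 axis, glutathione, thioredoxin, peroxiredoxin, glutathione peroxidase, glutathione transferase, superoxide dismutase and metallothionein systems. They were chosen by name, with earlier results of these data known. A gene was measured where a probe set carried its symbol and no other, and the probe set with the highest mean was used, which left 37 of the 38 genes among 18782 genes in all. Prdx5 had no such probe set and was not analysed here. The cells were alveolar macrophages, which live in the airspaces of the lung, from adult C57BL/6 mice, read on 4 Affymetrix arrays. Pparg, which encodes a lipid-sensing nuclear receptor, was floxed in both groups. KO mice (CD11cCre/PPARg fl/fl) also had Cre recombinase driven by the CD11c promoter, which is active in these macrophages and in other CD11c-expressing cells such as dendritic cells, and WT mice (PPARg fl/fl) are listed with no Cre. Each group had 2 arrays, and each array held pooled cells of 2 mice, so single animals cannot be seen. After enzymatic digestion of the lungs, viable CD45+ cells high in CD11c and autofluorescence and positive for Siglec-F were sorted, as CD11b-high cells from KO and CD11b-low cells from WT. The labels call the KO cells an arrested, immature stage and the WT cells mature. Genotype, CD11b gate and labelled stage thus differ together, and their parts in any difference between KO and WT cannot be told apart.

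NRF2, the product of Nfe2l2, is a transcription factor that KEAP1 holds at low levels until oxidants or electrophiles modify KEAP1. NRF2 then binds antioxidant response elements with small MAF proteins and drives genes for glutathione synthesis, thioredoxin recycling, haem breakdown and detoxification, while BACH1 competes for the same elements. Glutathione peroxidases and peroxiredoxins remove peroxides, superoxide dismutases remove superoxide, glutathione transferases couple glutathione to reactive compounds, and metallothioneins bind zinc and copper. Alveolar macrophages live at high oxygen tension and take up inhaled oxidants and oxidised surfactant lipids.

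Promoters of 4 genes whose levels differed between KO and WT, as described below, are shown because these genes went in both directions and because they differ in the short motifs that their upstream DNA holds. Each sequence is the 120 bases before the annotated start of the gene, 5′ to 3′ on the strand of the gene, from RefSeq on GRCm38.p6. Capitals mark an amino acid response element core (TGATGNAA) in Slc7a11, an AP-1 site (TGANTCA) in Srxn1 and an antioxidant response element (TGACNNNGC, on the opposite strand) in Mgst1. Gpx3 held no match to any of the 5 motifs searched, a metal response element core in Srxn1 is left in lower case, and the Mgst1 window is 1 of 2 listed.
Slc7a11, chr3:50443614-50443733, minus strand: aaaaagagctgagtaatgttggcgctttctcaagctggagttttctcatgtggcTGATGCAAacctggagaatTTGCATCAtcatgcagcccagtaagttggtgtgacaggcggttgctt
Gpx3, chr11:54902734-54902853, plus strand: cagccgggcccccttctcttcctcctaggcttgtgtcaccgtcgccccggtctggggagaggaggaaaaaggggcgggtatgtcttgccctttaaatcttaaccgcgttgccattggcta
Srxn1, chr2:152105404-152105523, plus strand: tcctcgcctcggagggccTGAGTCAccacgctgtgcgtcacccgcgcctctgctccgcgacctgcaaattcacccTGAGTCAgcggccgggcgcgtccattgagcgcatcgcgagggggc
Mgst1, chr6:138140407-138140526, plus strand: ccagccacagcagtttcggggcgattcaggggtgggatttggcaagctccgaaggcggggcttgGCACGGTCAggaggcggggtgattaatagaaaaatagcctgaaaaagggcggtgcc

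The level of each gene is a log2 RMA value, a background-corrected and normalised intensity on which a difference of 1 is a doubling. The arrays shared 1 distribution, with a median of 3.14, so a shift common to most transcripts is hidden by the normalisation. Across genes, arrays of the same genotype correlated with r of 0.996 (KO) and 0.995 (WT), and arrays of different genotype with r of 0.967 to 0.975. Pparg, the targeted gene, read 9.59 and 9.73 on the KO arrays, against 9.69 and 9.75 on the WT arrays. The position of these probes against the floxed part was not known, and the genotype cannot be checked from them. Differences below are KO minus WT with the standard error (SE) of a limma fit over all 18782 genes, and a gene passed the test where its Benjamini-Hochberg adjusted p over all of them was under 0.05. The labels call the replicates biological, and 2 arrays a group limit every error given. An exact permutation test of 1 gene in this design cannot give a p below 0.333.

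The antioxidant genes did not move in 1 direction. Of the 37 genes, 7 were higher in KO (Gpx3, Slc7a11, Srxn1, Gstm1, Gclc, Sod2 and Nfe2l2), 5 were lower (Mgst3, Gsto1, Hmox1, Gsr and Mgst1) and 25 did not pass the test. The median difference was 0.035, against -0.015 over all genes, and the median size of the difference was 0.23, against 0.145 over all genes. The 12 genes past the test were 32.4% of those measured, where 14.3% of all genes passed. The genes were chosen with earlier results of these data known, so such shares describe the set and do not test it. Most of the antioxidant genes were bright. Among the 10089 genes at or above the array median 24.6% passed, against 40.0% of the 30 antioxidant genes in that range. This is the closer comparison, but it is not fully matched for brightness. The 30 had a median level of 8.43, against 6.15 for the 10089. In each direction, 7.41% of all genes were higher and 6.86% were lower. Both KO arrays lay beyond both WT arrays for 25 of the 37 genes and for 55.3% of all genes, and for 23 of the 30 bright antioxidant genes, where the share was 70.0% of all genes of that brightness. Differences of at least 1 were found in Gpx3 and Slc7a11, and 5.22% of all genes passed the test with a difference of that size. The other 10 genes past the test differed by 0.39 to 0.79, or 1.31-fold to 1.72-fold.

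**Figure D1:**
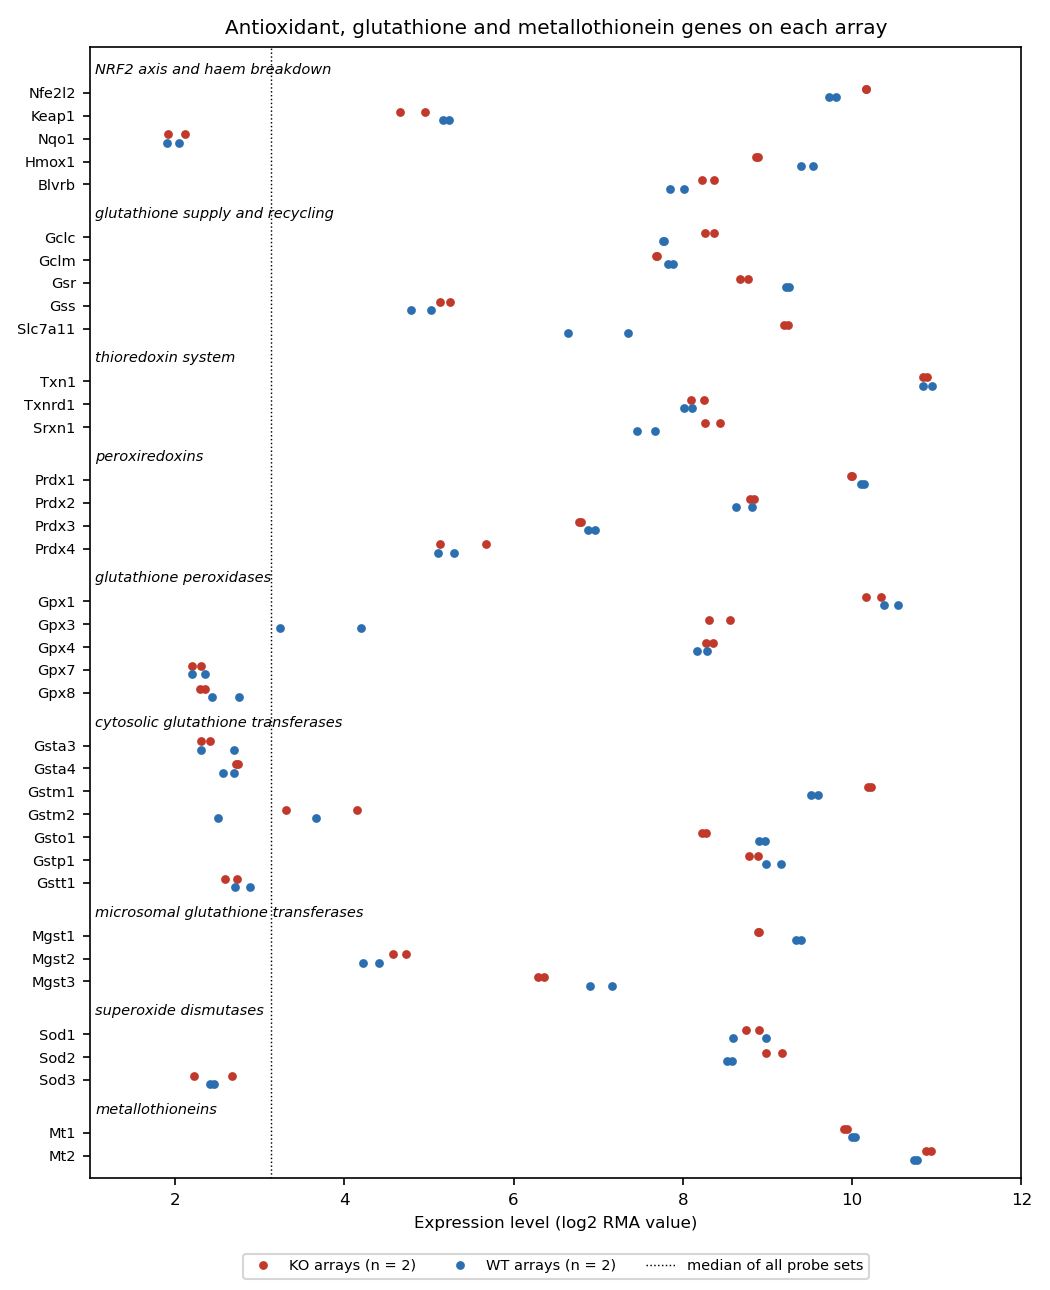
Log2 RMA level of each of the 37 genes (rows, grouped by role) on each array, with the 2 KO arrays (red) above the 2 WT arrays (blue) and the median of all probe sets as a dotted line at 3.14. Gpx3 and Slc7a11 show the widest gaps between KO and WT, and the metallothionein and peroxiredoxin genes and Txn1 differ by at most 0.20 between the group means.

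The 12 calls differ in whether they held with 1 array left out. Such a fit has fewer samples, so a lost call can reflect lower power as well as the array left out. Gpx3, Slc7a11 and Gsto1 passed the test with any 1 of the 4 arrays left out. Gstm1 failed without KO replicate 2 (adjusted p = 0.0538) and Srxn1 without KO replicate 1 (adjusted p = 0.0640) in the same limma fit. Mgst3 failed without KO replicate 1 (0.0664) and without KO replicate 2 (0.0805), and Hmox1 passed only without WT replicate 2 (0.0226). Nfe2l2, Gclc, Gsr, Mgst1 and Sod2 failed whichever array was left out. Their differences in these fits ran from 0.348 to 0.428 for Nfe2l2, 0.49 to 0.60 for Gclc and 0.43 to 0.61 for Sod2. Those of Gsr ran from -0.57 to -0.46 and those of Mgst1 from -0.51 to -0.45. With either KO array left out, 3 antioxidant genes were higher and 1 was lower. Leaving out WT replicate 1 gave 4 higher and 2 lower, and leaving out WT replicate 2 gave 4 higher and 3 lower. The direction of all 12 was the same in each fit.

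Glutathione peroxidases gave the widest difference of the whole set, in a single gene. Gpx3 encodes the secreted, plasma form of the enzyme, which reduces peroxides outside the cell. It read 8.32 and 8.56 on the KO arrays, against 3.24 and 4.20 on the WT arrays. Both KO arrays stood far above both WT arrays, and the spread was wider in WT (SD 0.68, n = 2) than in KO (SD 0.17, n = 2). The difference was 4.71 ± 0.30 (SE; limma adjusted p = 3.22e-04), about 26.3-fold on the RMA scale. The WT values lay close to the array median, where RMA values are known to be compressed, so this fold is not an exact ratio of transcripts. Without WT replicate 1 the difference was 4.24, and without WT replicate 2 it was 5.19. In sorted cells measured in bulk, more cells of a type and more RNA per cell cannot be told apart.

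The intracellular glutathione peroxidases did not follow Gpx3. Gpx1, the abundant cytosolic peroxidase, read 10.34 and 10.17 in KO, against 10.54 and 10.38 in WT. The KO arrays were both below the WT arrays, by less than the test could call (-0.21 ± 0.11; limma adjusted p = 0.332; 95% confidence interval -0.48 to 0.07). Gpx4, which reduces lipid peroxides in membranes, read 8.36 and 8.27 in KO, against 8.29 and 8.16 in WT, with overlapping groups. Its interval of -0.16 to 0.34 excludes a change of the size seen in Gpx3. Gpx7 and Gpx8, peroxidases of the endoplasmic reticulum, stayed under the array median on all 4 arrays, between 2.20 and 2.76, and neither passed the test.

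Genes that supply glutathione differed in both directions. Slc7a11 encodes xCT, the transporter that brings in cystine in exchange for glutamate and so feeds the cysteine of glutathione. Its level was 9.20 and 9.25 on the KO arrays, against 6.64 and 7.36 on the WT arrays. The KO arrays nearly coincided (SD 0.04, n = 2), the WT arrays did not (SD 0.51, n = 2), and the groups did not overlap. Slc7a11 rose by 2.23 ± 0.22 (SE; limma adjusted p = 0.00169), or 4.68-fold, with 1.87 without WT replicate 1 and 2.58 without WT replicate 2. Slc3a2, the partner chain that carries xCT to the membrane, read 10.29 and 10.32 in KO, against 10.42 and 10.45 in WT, and did not pass the test (-0.13 ± 0.09; adjusted p = 0.463).

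The enzymes that join the amino acids of glutathione were split. Gclc, the catalytic subunit of glutamate-cysteine ligase, read 8.37 and 8.26 in KO, against 7.78 and 7.76 in WT, and rose by 0.55 ± 0.10 (SE; limma adjusted p = 0.0151). Gclm, the modifier subunit of the same ligase, read 7.70 and 7.68 in KO, against 7.89 and 7.83 in WT. Its KO arrays lay slightly below the WT arrays and the gene did not pass the test (-0.17 ± 0.09; adjusted p = 0.340). Gss, which encodes the synthetase of the second step, differed by 0.29 ± 0.12 (adjusted p = 0.198), with a confidence interval of -0.01 to 0.58. Gsr encodes the reductase that returns oxidised glutathione to its reduced form with NADPH. It read 8.67 and 8.77 in KO, against 9.26 and 9.22 in WT, and fell by 0.51 ± 0.10 (SE; adjusted p = 0.0190). Within 1 pathway, the importer and the catalytic ligase subunit were higher and the recycling enzyme lower.

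Within the NRF2 axis the differences were small. Nfe2l2 read 10.16 on both KO arrays, against 9.73 and 9.81 on the WT arrays, a difference of 0.39 ± 0.10 (SE; limma adjusted p = 0.0459) that was just past the threshold. Keap1, the adaptor that marks NRF2 for destruction, read 4.96 and 4.66 in KO, against 5.24 and 5.17 in WT. Both KO arrays were lower, but Keap1 did not pass (-0.40 ± 0.13; adjusted p = 0.100). Nqo1, a quinone reductase that is a classical NRF2 target, lay at 2.12 and 1.91 in KO, against 1.91 and 2.05 in WT, below the array median in both groups.

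Of the haem breakdown genes on the list, Hmox1 was lower and Blvrb did not pass the test. Hmox1, the inducible haem oxygenase that releases iron, carbon monoxide and biliverdin, read 8.86 and 8.89 in KO, against 9.54 and 9.39 in WT. It fell by 0.59 ± 0.10 (SE; limma adjusted p = 0.0136), with no overlap between the groups. Blvrb, a biliverdin reductase, read 8.22 and 8.37 in KO, against 8.02 and 7.85 in WT. Its difference of 0.36 ± 0.11 did not pass the test (adjusted p = 0.0914), although it did with an intensity trend in the variance prior (adjusted p = 0.0264).

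In the thioredoxin system the repair enzyme alone passed the test. Srxn1 encodes sulfiredoxin, which restores peroxiredoxins that peroxide has over-oxidised. It read 8.44 and 8.26 in KO, against 7.47 and 7.67 in WT, a difference of 0.79 ± 0.12 (SE; limma adjusted p = 0.00861) with the groups well apart. Txn1, thioredoxin, read 10.84 and 10.88 in KO, against 10.94 and 10.84 in WT. The groups overlapped, and the confidence interval of the difference ran from -0.27 to 0.21. Txnrd1, the reductase of thioredoxin, differed by 0.11 ± 0.11 (adjusted p = 0.587).

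None of the 4 peroxiredoxins measured passed the limma test at the adjusted threshold, and 0 had an unadjusted p under 0.05. Prdx1, the most widely expressed cytosolic form, read 10.00 and 9.98 in KO, against 10.14 and 10.10 in WT (-0.13 ± 0.09; adjusted p = 0.468). Prdx2, a cytosolic form known from red cells, differed by 0.10 ± 0.11, Prdx3 of mitochondria by -0.13 ± 0.10 and Prdx4 of the endoplasmic reticulum by 0.20 ± 0.19. The 95% intervals of Prdx1, Prdx2 and Prdx3 lay within -0.365 to 0.358, so larger changes lay outside them, and that of Prdx4 reached 0.66. Txn1, Prdx1, Prdx2, Gpx4 and Sod1 each had a second probe set. Its difference was -0.105 for Txn1, -0.23 for Prdx1, 0.27 for Prdx2, 0.09 for Gpx4 and -0.05 for Sod1, the last opposite in sign to the 0.035 of the probe set used. Whether near-identical gene copies add to these signals was not tested.

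**Figure D2:**
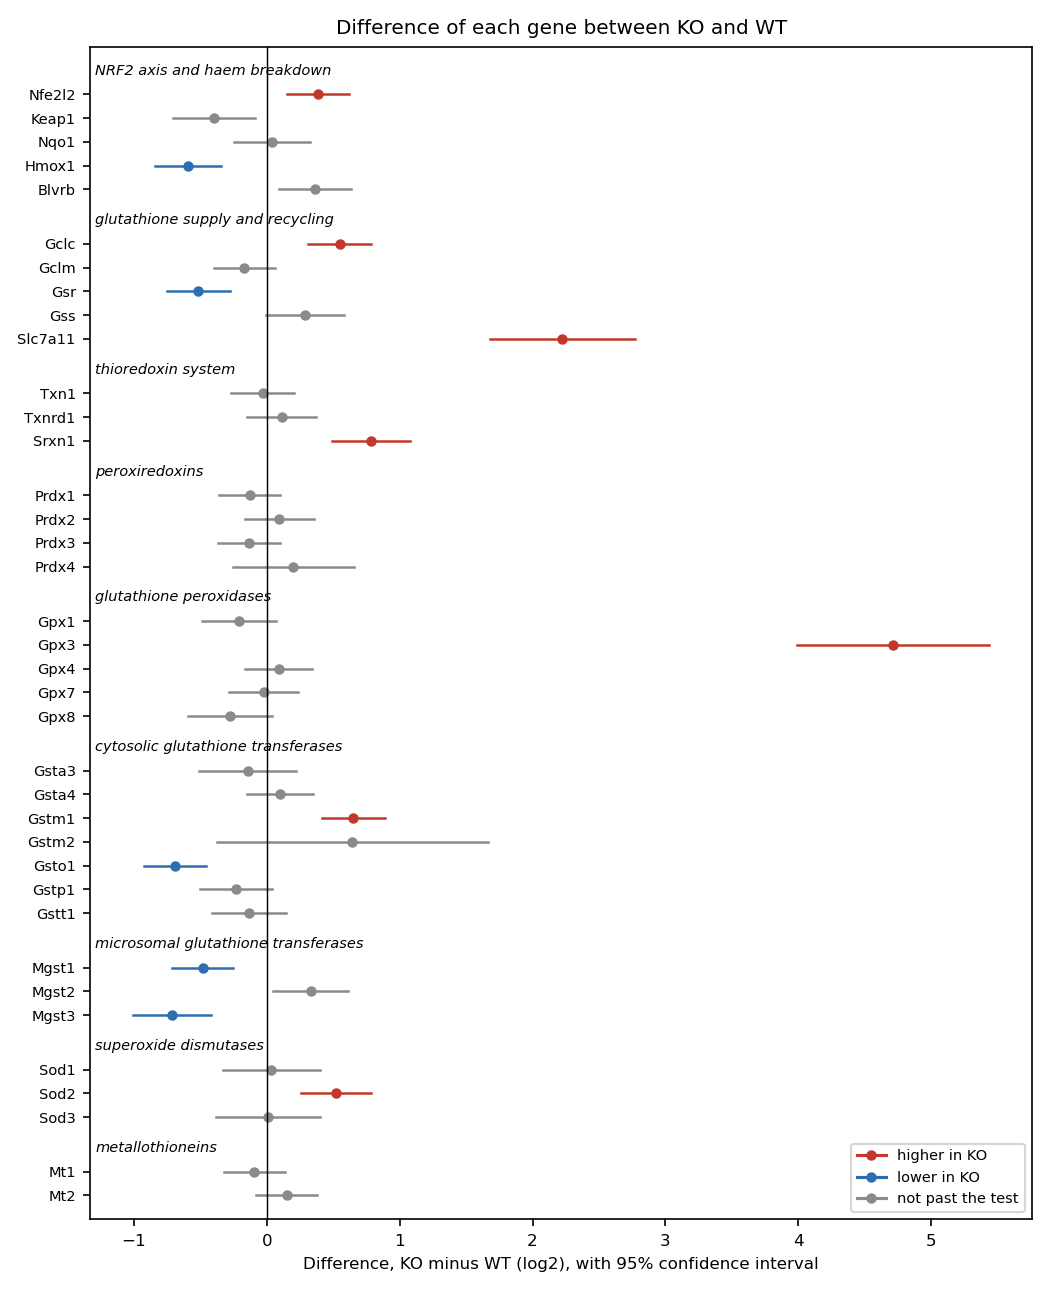
Difference of each gene, KO minus WT in log2 units, with its 95% confidence interval from the limma fit, coloured by whether it was higher, lower or not past the test. Gpx3 (4.71) and Slc7a11 (2.23) stand apart to the right, the 5 lower genes lie between -0.71 and -0.48, and both metallothioneins have intervals that cross 0.

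Glutathione transferases were higher and lower within the same family. Gstm1, a mu-class enzyme of the cytosol, read 10.19 and 10.22 in KO, against 9.51 and 9.60 in WT, a difference of 0.65 ± 0.10 (SE; limma adjusted p = 0.00739). Gsto1, an omega-class enzyme that also reduces dehydroascorbate, read 8.22 and 8.27 in KO, against 8.97 and 8.90 in WT, and fell by 0.69 ± 0.10 (SE; adjusted p = 0.00597). Neither gene's groups overlapped. Gstp1, the pi-class enzyme, read 8.89 and 8.79 in KO, against 9.16 and 8.98 in WT, and did not pass (-0.23 ± 0.11; adjusted p = 0.253). Gstm2 varied more between replicates than any other gene of the family, with 4.15 and 3.31 in KO, against 3.67 and 2.51 in WT, and its difference of 0.64 ± 0.42 had an adjusted p of 0.413. Gsta3, Gsta4 and Gstt1 stayed below the array median on every array.

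The membrane-bound transferases included 2 of the 5 lower genes. Mgst1, which protects membranes of the endoplasmic reticulum and mitochondria, read 8.90 and 8.88 in KO, against 9.40 and 9.34 in WT, and fell by 0.48 ± 0.09 (SE; limma adjusted p = 0.0211). Mgst3, which has transferase and peroxidase activity towards lipids, read 6.36 and 6.29 in KO, against 7.17 and 6.91 in WT, and fell by 0.71 ± 0.12 (SE; adjusted p = 0.0121). Mgst2, a relative that can make leukotriene C4, read 4.73 and 4.58 in KO, against 4.41 and 4.23 in WT. Its KO arrays were both above the WT arrays, and the difference of 0.33 ± 0.12 did not pass (adjusted p = 0.126).

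Of the superoxide dismutases, the mitochondrial enzyme was higher. Sod2 read 9.17 and 8.98 in KO, against 8.59 and 8.53 in WT, a difference of 0.52 ± 0.11 (SE; limma adjusted p = 0.0254). Sod1, the copper and zinc enzyme of the cytosol, read 8.74 and 8.90 in KO, against 8.98 and 8.59 in WT, with overlapping groups and an interval of -0.33 to 0.40. Sod3, the extracellular enzyme, lay between 2.22 and 2.68 on all arrays, below the array median.

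The metallothioneins were bright and nearly level. Mt1 read 9.94 and 9.90 in KO, against 10.03 and 10.00 in WT (-0.09 ± 0.09; limma adjusted p = 0.620; interval -0.32 to 0.14). Mt2 read 10.93 and 10.87 in KO, against 10.77 and 10.73 in WT (0.15 ± 0.10; adjusted p = 0.401; interval -0.08 to 0.38). The groups did not overlap in either gene, but the gaps were in opposite directions and within the error of the fit. Mtf1, the zinc-sensing factor that drives both genes, differed by -0.33 ± 0.13 and the zinc exporter gene Slc30a1, which it also drives, by 0.24 ± 0.10, and neither passed the test (adjusted p = 0.179 and 0.201).

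**Figure D3:**
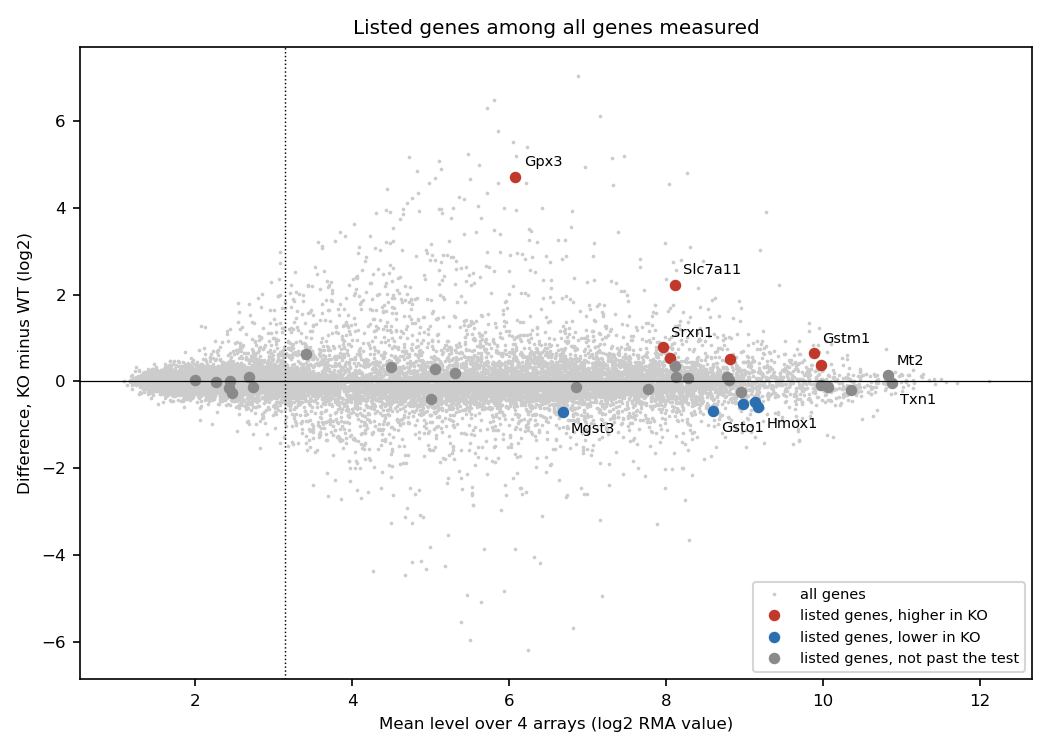
Difference between KO and WT (vertical, log2) against mean level over the 4 arrays (horizontal, log2 RMA value) for 18782 genes (grey) and the 37 antioxidant genes (coloured by test result). Most of the antioxidant genes lie right of the array median (dotted line, 3.14), and apart from Gpx3 and Slc7a11 they stay within 1 log2 unit of 0.

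Of the 37 genes, 7 stayed below the array median on every array, between 1.91 and 2.89, and 0 of them passed the test. They were Nqo1, Gpx7, Gpx8, Gsta3, Gsta4, Gstt1 and Sod3. The other 30 genes lay at or above the median in the mean of 4 arrays. Of the 18 bright genes that did not pass, 11 had confidence intervals within -0.5 and 0.5, so that larger changes lay outside their intervals.

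Other genes of the same pathways gave a similar mixture. The list held 129 genes, 117 of them measured, and included 15 measured genes of cell stress and tissue dissociation. It was chosen with earlier results of these data known, so the shares given for it and its groups are descriptive. Of the 117, 20 were higher and 11 lower, and 86 did not pass. The share past the test was 26.5%, against 14.3% of all genes, and 101 of them were at or above the array median, where 24.6% passed. The shares of 14.3% and 24.6% are also the background for each group of this list described below. The median difference was -0.005. Without the stress genes, 15 of 102 were higher and 11 were lower. Leaving out KO replicate 1 gave 8 higher and 7 lower genes, KO replicate 2 gave 9 and 5, WT replicate 1 gave 8 and 8, and WT replicate 2 gave 15 and 11.

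Of 11 regulators and partners of NRF2, a list that also held the unrelated factor Nrf1, 2 were higher and 2 lower. Bach1, the repressor that competes with NRF2, read 7.53 and 7.72 in KO, against 8.11 and 8.23 in WT, and fell by 0.55 ± 0.11 (SE; limma adjusted p = 0.0248). The small MAF genes split, in that Maff fell by 1.21 ± 0.22 (adjusted p = 0.0154) and Mafg was higher by 0.46 ± 0.11 (adjusted p = 0.0372). Bach2, a relative of Bach1, was higher by 0.51 ± 0.11 (adjusted p = 0.0282) and lay near the array median. Cul3, the ubiquitin ligase scaffold that works with KEAP1, differed by 0.06 ± 0.10. With 1 array left out, the adjusted p of Bach1 ran from 0.0566 to 0.131 and that of Mafg from 0.0603 to 0.171. Bach2 passed in 1 of 4 such fits and Maff in 3 of 4.

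Of 13 other NRF2 target and xenobiotic genes, 5 were higher and 0 lower. That was 38.5%, against 14.3% of all genes and 24.6% of those at or above the array median, where 12 of the 13 lay. The list was chosen with earlier results of these data known. Of the glutathione supply, thioredoxin and haem breakdown genes described above, Slc7a11, Gclc and Srxn1 were higher and Gsr and Hmox1 lower. Gclm, Gss, Txn1, Txnrd1 and Blvrb did not pass the test, and neither did Nqo1. The part of NRF2 in these differences was not tested. Ephx1, the microsomal epoxide hydrolase, read 8.63 and 8.48 in KO, against 4.57 and 5.44 in WT, a difference of 3.55 ± 0.27 (SE; limma adjusted p = 6.35e-04). Its WT arrays were spread (SD 0.62, n = 2), by far less than the gap between the groups. Esd, an esterase of S-formylglutathione, was higher by 1.01 ± 0.10 (adjusted p = 0.00148) and Ptgr1, a reductase of reactive aldehydes and prostaglandins, by 0.88 ± 0.15 (adjusted p = 0.0138). Ephx1 and Esd passed in all 4 fits with 1 array left out, and Ptgr1 in 2 of 4.

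Of 8 measured genes listed under NADPH supply, 3 were lower and 0 higher. NADPH is the reducing power on which glutathione and thioredoxin recycling draw. The list is wider than the enzymes that make NADPH. Transaldolase and transketolase do not make it, and Me2 works mainly with NAD. The share past the test was 37.5%, against 14.3% of all genes and 24.6% of those at or above the array median, where 7 of the 8 lay. G6pdx, the first dehydrogenase of the pentose phosphate pathway, was listed but had no probe set with its symbol alone. Me2, a mitochondrial malic enzyme, read 6.242 and 6.197 in KO, against 8.51 and 7.67 in WT, and fell by 1.87 ± 0.26 (SE; limma adjusted p = 0.00557). Taldo1, transaldolase of the pentose phosphate pathway, read 7.79 and 7.80 in KO, against 8.84 and 8.77 in WT, and fell by 1.0015 ± 0.10 (SE; adjusted p = 0.00139). Idh1, the cytosolic isocitrate dehydrogenase that makes NADPH, fell by 0.72 ± 0.10 (SE; adjusted p = 0.00478). Taldo1 and Idh1 passed with any 1 array left out and Me2 in 3 of 4 such fits, with an adjusted p of up to 0.0501. Pgd and Tkt, a dehydrogenase and a transketolase of the same pentose phosphate pathway, differed by 0.09 ± 0.11 and -0.13 ± 0.10 (adjusted p = 0.671 and 0.496).

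Of 14 other glutathione transferase genes, 2 were higher and 1 lower, and the wide differences were in enzymes of lipid mediators. Hpgds, the prostaglandin D synthase that uses glutathione, read 6.08 and 6.14 in KO, against 4.74 and 3.48 in WT, and was higher by 2.00 ± 0.37 (SE; limma adjusted p = 0.0173). The WT arrays were spread (SD 0.89, n = 2), and Hpgds passed in 2 of 4 fits with 1 array left out, with adjusted p of up to 0.106. Ltc4s, the leukotriene C4 synthase that joins glutathione to a lipid, read 6.95 and 7.17 in KO, against 9.17 and 9.001 in WT, and fell by 2.03 ± 0.12 (SE; adjusted p = 2.86e-04). It passed in all 4 fits with 1 array left out, in which the difference ran from -2.14 to -1.91. Gstm3 was higher by 0.39 ± 0.10 (adjusted p = 0.0482), and by 0.23 (adjusted p = 0.301) when the mean of its probe sets was used, and it passed in 0 of 4 fits with 1 array left out (adjusted p of 0.115 to 0.197).

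Of 5 genes of haem breakdown and iron storage, 1 was higher and 1 lower. Slc40a1, ferroportin, the exporter of iron, read 5.70 and 5.79 in KO, against 3.72 and 3.98 in WT, and was higher by 1.89 ± 0.12 (SE; limma adjusted p = 3.57e-04). Blvra, the main biliverdin reductase, read 6.61 and 6.34 in KO, against 7.91 and 7.71 in WT, and fell by 1.33 ± 0.13 (SE; adjusted p = 0.00161), while its relative Blvrb, described above, did not pass. Both calls held with any 1 array left out. Fth1 and Ftl1, the ferritin chains, differed by 0.065 ± 0.09 and 0.24 ± 0.11 and did not pass (adjusted p = 0.732 and 0.229).

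**Figure D4:**
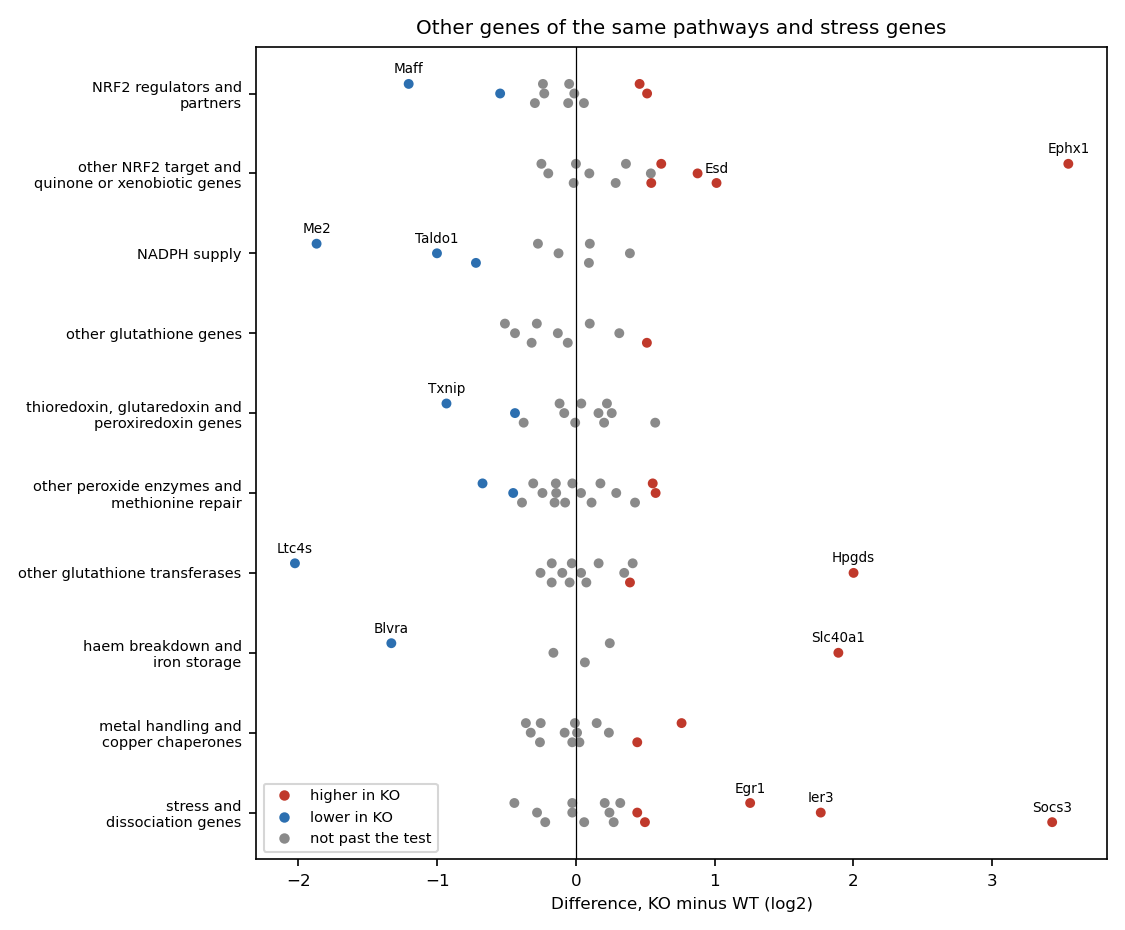
Difference, KO minus WT on the log2 scale, of 117 other genes of the antioxidant pathways and of cell stress, 1 point a gene, in 10 groups (rows; offsets within a row carry no value) coloured by test result. Ephx1 (3.55), Socs3 (3.43), Hpgds (2.00) and Slc40a1 (1.89) lie farthest right, and Ltc4s (-2.03), Me2 (-1.87), Blvra (-1.33) and Maff (-1.21) farthest left.

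In the remaining groups few genes passed. Of 12 other thioredoxin, glutaredoxin and peroxiredoxin genes, 2 were lower. Txnip, the inhibitor of thioredoxin, fell by 0.93 ± 0.14 (SE; limma adjusted p = 0.00845) and the mitochondrial glutaredoxin gene Glrx5 by 0.44 ± 0.10 (adjusted p = 0.0331). Of 17 genes of other peroxide enzymes and methionine repair, 2 were higher, the methionine sulfoxide reductase gene Msrb2 (0.55 ± 0.10) and the sestrin gene Sesn1 (0.575 ± 0.12). In the same group 2 were lower, Sephs2 (-0.67 ± 0.11), which makes the selenium donor for selenoproteins such as the glutathione peroxidases, and Selenop (-0.45 ± 0.10), a secreted selenium carrier. Catalase, Cat, read 9.001 and 9.114 in KO, against 9.25 and 9.16 in WT, and did not pass (-0.14 ± 0.10; adjusted p = 0.449).

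Of 9 other glutathione genes, Glo1, which clears methylglyoxal with glutathione, was higher (0.51 ± 0.10; limma adjusted p = 0.0239). Of 13 metal genes, the copper importer gene Slc31a1 (0.76 ± 0.11; adjusted p = 0.00750) and the zinc importer gene Slc39a10 (0.44 ± 0.10; adjusted p = 0.0286) were higher and 0 were lower. With 1 array left out, Slc31a1 passed in 4 of 4 fits, Txnip and Sephs2 in 3, Msrb2 and Sesn1 in 1, and Glrx5, Selenop, Glo1 and Slc39a10 in 0.

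The lungs of both groups were digested before sorting, and genes of cell stress and dissociation were read beside the antioxidant genes. Of the 15 measured, 5 were higher, 0 were lower and 10 did not pass, among them Fos (-0.03), Dusp1 (0.06) and Jun (-0.44). The share past the test was 33.3%, against 14.3% of all genes and 24.6% of those at or above the array median, where 14 of the 15 lay. The 5 were led by Socs3 (3.43 ± 0.15), a feedback inhibitor of cytokine signalling, Ier3 (1.77 ± 0.17) and the immediate early gene Egr1 (1.26 ± 0.14), each past the limma test with any 1 array left out. Their part in the differences of the antioxidant genes was not tested.

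Markers of cells that could have entered the sort were read on the same arrays. Of 101 markers measured, 16 were higher and 9 lower, or 24.8% past the test, against 14.3% of all genes. Of 13 interstitial macrophage markers, 7 were higher and 3 lower, and their summed linear level was 5223 and 5255 in KO, against 3238 and 2900 in WT. Without Apoe the sum was 2837 and 2869 in KO, against 3028 and 2779 in WT, so the higher sum rests on Apoe. The 7 higher genes were C1qb (6.48), C1qc (4.84), Apoe (3.91), C1qa (3.77), Cx3cr1 (2.91), Ms4a7 (0.48) and Lyve1 (0.40). The 3 lower genes were Mrc1 (-0.44), H2-Ab1 (-0.89) and Cd74 (-0.84). Of 8 monocyte markers, 5 were higher and 1 lower, with a sum of 2631 and 2478 in KO, against 1950 and 2021 in WT. The lower one was Treml4 (-2.39). Itgam, 1 of the 5 higher monocyte markers, encodes CD11b, for which KO cells were sorted as high and WT cells as low. It read 8.87 and 8.61 in KO, against 3.10 and 2.87 in WT. Without Itgam the monocyte sum was 2163 and 2087 in KO, against 1941 and 2014 in WT, so much of the gap in the sum rests on this gated gene. The complement gene C1qb, an interstitial macrophage marker, read 9.28 and 8.81 in KO, against 2.03 and 3.09 in WT, and Apoe read 11.22 on both KO arrays, against 7.71 and 6.91 in WT. Within both lists some markers were thus higher and others lower in KO, and their part in the differences of Gpx3 and Slc7a11 was not tested.

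Alveolar macrophage markers were 4 lower and 0 higher of 12, with sums of 8759 and 8784 in KO, against 12266 and 11191 in WT. The 4 lower were Krt79 (-6.19), Fabp1 (-5.96), Cidec (-5.67) and Siglecf. Siglecf, which encodes the gated Siglec-F, read 6.01 and 6.48 in KO, against 9.59 and 9.44 in WT. The other 8 did not pass, among them Plet1 (-0.045) and Chil3 (0.04), the brightest of the list, and Itgax (0.24). Marco (-2.62) and Fabp4 (-2.07) did not pass either, and their WT arrays were spread. Of 10 fibroblast and smooth muscle markers, 0 passed the limma test, 6 lay below the array median, and the summed level was 85.1 and 86.3 in KO, against 81.2 and 85.5 in WT. Of 4 measured erythroid markers, 0 passed and all 4 lay below the median, with sums of 20.2 and 19.7 in KO, against 17.8 and 20.1 in WT. Red cells are known for high Prdx2 and Blvrb. Of 8 club and ciliated cell markers 0 passed, but Scgb1a1 read 6.48 and 6.63 in KO, against 6.89 and 4.26 in WT, so that this airway secretory marker differed between the WT arrays. Of the other lists, 1 of 8 dendritic cell, 1 of 9 alveolar type 2 and 1 of 7 endothelial markers were higher, neutrophil markers were 1 higher and 1 lower of 9, and 0 of 5 eosinophil and 0 of 8 lymphocyte markers passed.

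Promoters were searched on both strands over the 250 bases before each start in 27025 genes, 33 of them on the antioxidant list, the unmeasured Prdx5 included. The antioxidant response element TGACNNNGC occurred in 8 of the 33, or 24.2%, and in 11.5% of all genes. The 8 were Gclm, Gsta3, Mgst1, Mt2, Nfe2l2, Prdx1, Sod1 and Txnrd1, of which Nfe2l2 was higher and Mgst1 lower in KO. The AP-1 site TGANTCA, which can lie inside an antioxidant response element, occurred in 5 of 33 (15.2%) and in 7.82% of all genes. Srxn1, shown above, held 2 copies, at 102 to 96 and 45 to 39 bases before its start. The copy nearer the start reads TGAGTCAGC with the bases after it. Forms of the antioxidant response element other than TGACNNNGC were not searched.

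The amino acid response element core TGATGNAA occurred in 1 of the 33, Slc7a11, and in 3.91% of all genes. Slc7a11 held 2 copies in opposite orientation, at 66 to 59 and 47 to 40 bases before its start. The metal response element core TGCNCNC occurred in 12 of 33 (36.4%), among them both metallothioneins, and in 47.2% of all genes. The direct repeat that PPAR receptors bind, 2 copies of AGGTCA with 1 base between them, occurred in 0 of 33 and in 0.0407% of all genes. A match describes these letters in this window and no more.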

How the data were processed

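The members and gene lists were chosen with earlier results of these data known. The deposited values are log2 intensities, 1 for each probe set. The submitters' processing notes name RMA and R 2.15.2. The settings of RMA were not given. RMA corrects background, equalises array distributions and summarises probes, so global shifts are removed. The table held 28371 probe sets, of which 21158 carried 1 gene symbol in the platform's annotation, 1881 several and 5332 none listed. Single-symbol probe sets gave 18782 genes, and the RefSeq gene table held the Entrez identifier of 21128 of these probe sets. For 1368 genes with several probe sets the one with the highest mean was used. No intensity filter was applied.

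The comparison of KO with WT used limma 3.58.1 under R 4.3.3 (group as the only term, empirical Bayes, two-sided; 2 residual and 4.16 prior degrees of freedom). The fit was tested on simulated data. P-values were Benjamini-Hochberg adjusted over all genes. Per-array values are given for every member past the test and for the member with the highest mean of each class where it did not pass, and up to 3 genes in each direction are named per group of other pathway genes; any other gene named was picked with its values known. Alternatives were leaving out each array, a replicate block, an intensity trend, an ordinary test, a filter on dim genes, the mean of a gene's probe sets, repeated quantile normalisation and a test against a difference of 0.5. Promoters came from RefSeq (GRCm38.p6). Marker sums were also taken with each gene left out, a choice made after seeing the data.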

Additional observations from a re-analysis of the deposited data

How the results depend on the processing

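The same 7 higher and 5 lower antioxidant genes were called with dim genes left out, with the mean of a gene's probe sets and with quantile normalisation repeated. With 1 array left out, all genes called numbered 724 to 1227 higher and 647 to 1057 lower, the antioxidant genes 3 to 4 higher and 1 to 3 lower, and the other pathway genes 8 to 15 higher and 5 to 11 lower. These fits leave 1 array in a group, which is assumed to vary like the other group, and have fewer samples. The ordinary unmoderated linear-model test called 0 genes in either direction in all 3 sets, with 1739 higher and 1896 lower of all genes, 7 and 7 antioxidant genes and 20 and 19 other pathway genes at an unadjusted p under 0.05. Against a difference of 0.5, 498 genes were higher and 336 lower, with 2 and 0 antioxidant genes (3 and 1 at an unadjusted p under 0.05) and 6 and 4 other pathway genes. The labels do not say whether replicates of the same number were handled together. Deviations of KO 1 and WT 1 from their group means correlated at -0.02, so no effect shared by number was seen over all genes. With the replicate block, 1309 genes were higher and 1168 lower, and 7 antioxidant genes were higher, 6 of them shared. Nfe2l2 lost its call in that fit (adjusted p = 0.0769) and Gstm2 gained one (0.0280). The sign of 7 genes far from the threshold turned, and the cause was not tested: with 1 array left out, Gpx7 ran from -0.097 to 0.052, Gsta3 from -0.34 to 0.0585, Nqo1 from -0.066 to 0.14, Prdx4 from -0.066 to 0.47, Sod1 from -0.16 to 0.23, Sod3 from -0.22 to 0.24 and Txn1 from -0.08 to 0.02. Sod1 differed by -0.006 with the mean of its probe sets. Signal near the array median limits what the 7 dim genes can show.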

Other observations

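A pair of probe sets carried both Gstp1 and Gstp2 and so entered no test by gene. One read 7.34 and 7.32 in KO, against 7.41 and 7.31 in WT, and the other 6.85 and 6.84 in KO, against 6.87 and 6.78 in WT. Their differences were -0.03 and 0.02, smaller than the -0.23 of the Gstp1 probe set used, and none of the 3 was tested against the others.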
